A study of Mus musculus with 4 samples.

Results

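Acute-phase and complement genes were followed across the cells of mouse pancreatic ductal adenocarcinoma, in tumour cells first and then in fibroblasts, macrophages and neutrophils. They are 10 of the 32285 features of each library: Lcn2, Saa3, Lbp, Rarres2 and Cp, whose products are secreted in the acute-phase response, and C1ra, C1s1, C4b, C3 and Cfb of the complement cascade. They were chosen by their UMIs and shares of positive cells in these same libraries and were then taken by gene symbol, so their levels are given as a description. RNA of single cells was captured in droplets from 4 groups with 1 library each. The PH group received hydroxychloroquine, an inhibitor of lysosomal acidification, together with paricalcitol, an agonist of the vitamin D receptor. The G group received gemcitabine, a nucleoside analogue that halts DNA synthesis. The GPH group received all 3 drugs according to its title, while its treatment label breaks off after gemcitabine, and the control group received PBS. The stated question was whether paricalcitol with hydroxychloroquine sensitises the tumours to gemcitabine. Strain, age and tumour model were not given in the sources used here. Each library pooled tumour pieces of 3 animals, so the spread between animals is unknown and treatment and library cannot be told apart. No test was possible, and each 95% interval below covers counting error of unique molecular identifiers (UMIs) only.

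The acute-phase response is a rise of secreted proteins during infection and tissue injury, driven mostly by interleukin 6 and interleukin 1 acting through STAT3, C/EBP and NF-kappaB transcription factors. The liver is its main source, but epithelial cells, fibroblasts and macrophages make several of these proteins locally. Complement is a cascade of serum proteases in which C1 (with C1r and C1s) cleaves C4, factor B serves the alternative pathway, and both routes meet at C3. Pancreatic tumours are known for a dense stroma in which a class of inflammatory fibroblasts makes acute-phase and complement proteins.

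The members lie on 5 chromosomes of the mm10 assembly. Lcn2 encodes lipocalin 2, which binds the siderophores that carry iron to bacteria (chr2:32384633-32388252, minus strand). Saa3 encodes serum amyloid A3, an apolipoprotein made outside the liver in mice (chr7:46711998-46715700, minus strand). Lbp encodes the lipopolysaccharide-binding protein, which hands bacterial lipopolysaccharide to CD14 (chr2:158306493-158332852, plus strand). Rarres2 encodes chemerin, a chemoattractant for leukocytes that carry the receptor Cmklr1 (chr6:48569696-48572789, minus strand). Cp encodes ceruloplasmin, a copper-bound ferroxidase (chr3:19957054-20009145, plus strand). C1ra and C1s1 encode the C1r and C1s proteases and are neighbours on opposite strands, 6901 bases apart (chr6:124512405-124523443 and chr6:124530345-124542359). C4b encodes complement C4 (chr17:34728380-34743882, minus strand), and Cfb encodes factor B (chr17:34856374-34862518, minus strand). C3 encodes the component on which the pathways converge (chr17:57203970-57228136, minus strand). C4b, C1ra and C1s1 have near-identical copies (C4a, C1rb and C1s2) between which reads could have been split. Those copies stood at no more than 0.472 CPM (counts scaled to 1000000 UMIs of the population) in vimentin-high cells of every library.

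RefSeq promoters on GRCm38.p6 were at hand for 6 of the 10 members. Their windows of 300 bases were searched on both strands for a C/EBP motif (TTGCNNAA), a STAT motif (TTCNNNGAA) and a kappaB motif of 10 letters. These members had 8 promoters in all, and 6 of the 8 held the C/EBP letters (1 each of Lcn2, Saa3, Cp, C1ra, C1s1 and C3), against 10.8% of 32817 promoters. The STAT letters were found for C1ra alone and in 8.29% of promoters, and the kappaB letters for no member and in 8.46% of promoters. A match describes these windows and is not evidence of binding. The 250 bases before the start site are printed for the 4 of these members with the largest ratio of GPH to control below, with the C/EBP match in capitals. It lay 216, 99, 70 and 45 bases before the RefSeq start site used for Lcn2 (chr2:32387740-32387989, minus strand), Saa3 (chr7:46715677-46715926, minus strand), Cp (chr3:19956999-19957248, plus strand) and C3 (chr17:57228137-57228386, minus strand). These start sites can differ from the gene bounds given above. The Lcn2 window lay wholly inside those bounds, and the Cp and Saa3 windows lay partly inside. Cp had another promoter window (chr3:19956804-19957103), which held no match.
Lcn2: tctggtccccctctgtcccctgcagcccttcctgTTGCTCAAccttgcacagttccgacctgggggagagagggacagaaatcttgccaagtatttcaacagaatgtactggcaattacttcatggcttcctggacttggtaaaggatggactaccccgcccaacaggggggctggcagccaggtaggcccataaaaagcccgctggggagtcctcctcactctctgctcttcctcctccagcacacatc
Saa3: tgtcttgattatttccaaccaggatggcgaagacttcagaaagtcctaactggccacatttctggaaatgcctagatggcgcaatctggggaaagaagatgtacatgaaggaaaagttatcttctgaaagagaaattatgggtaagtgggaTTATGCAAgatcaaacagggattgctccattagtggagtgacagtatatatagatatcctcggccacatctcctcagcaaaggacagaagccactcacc
Cp: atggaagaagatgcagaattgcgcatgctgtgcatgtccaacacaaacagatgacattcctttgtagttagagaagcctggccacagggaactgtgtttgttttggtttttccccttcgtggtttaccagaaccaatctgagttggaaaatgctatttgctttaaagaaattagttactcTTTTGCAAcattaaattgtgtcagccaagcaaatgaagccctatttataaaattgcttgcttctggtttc
C3: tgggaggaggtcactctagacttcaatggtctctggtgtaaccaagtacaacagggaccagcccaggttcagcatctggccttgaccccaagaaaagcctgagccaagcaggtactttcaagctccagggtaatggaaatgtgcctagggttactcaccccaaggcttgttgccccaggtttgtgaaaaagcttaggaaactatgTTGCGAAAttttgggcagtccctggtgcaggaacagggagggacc

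The vimentin-high and keratin-high populations were named by their genes, and the immune and fibroblast populations by markers of a cell type. After filtering, 13977 cells of PH, 12449 of G, 4411 of GPH and 10074 of control were kept, with median depths between 4613 UMIs in G and 20079 in GPH. In GPH 41.0% of barcodes had over 20% mitochondrial UMIs, against 12.7% in PH and 15.6% in both G and control. Pairs of libraries shared 17 to 79 barcodes. Vimentin-high tumour cells numbered 10585 in PH, 1884 in G, 1431 in GPH and 7785 in control. They expressed Cdkn2a at 832 to 1229 CPM and almost no Xist (0.509 to 8.42 CPM), while all 8 fibroblast markers were detected in them, at a summed 474 CPM in PH, 799 in G, 1362 in GPH and 722 in control. Keratin-high tumour cells numbered 1318 in G and 2076 in GPH, against 5 in PH and 1 in control. Y-linked genes in vimentin-high cells summed to 0.449 CPM in PH, 8.50 in G, 11.6 in GPH and 0.0774 in control, and Nmt1 stood at 26.0, 26.5, 100.0 and 113 CPM in the same order. The part of these differences in the results was not tested.

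In vimentin-high tumour cells, all 10 genes were at their highest CPM in GPH. Lcn2 gave 2647 UMIs in PH, 654 in G, 2885 in GPH and 406 in control, which is 20.5, 24.2, 105 and 3.49 CPM. Saa3 stood at 22.7 CPM in PH, 24.6 in G, 98.5 in GPH and 4.86 in control. For both genes PH and G were close to each other, GPH was far above them and control was far below. Lbp reached 52.8 CPM in PH, 47.9 in G, 162 in GPH and 18.5 in control. Cp, the ferroxidase gene, stood at 85.3 CPM in PH, 70.9 in G, 316 in GPH and 51.8 in control. Rarres2 kept another order, with 2.31 CPM in PH, 21.5 in G, 51.2 in GPH and 3.25 in control. For this gene the libraries with gemcitabine were high and the other pair was low.

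The complement genes shared the order of Rarres2, with PH at or below control except for Cfb. C3 gave 2932 UMIs in PH, 2118 in G, 8891 in GPH and 2863 in control, or 22.7, 78.2, 323 and 24.6 CPM. C4b stood at 7.16 CPM in PH, 20.9 in G, 77.5 in GPH and 10.1 in control. Cfb gave few UMIs, with 53 in PH, 93 in G, 271 in GPH and 44 in control, or 0.410, 3.43, 9.85 and 0.378 CPM. The intervals of PH and control overlapped for Cfb. The genes of the C1 proteases were close in G and control: C1ra stood at 18.9 CPM in PH, 30.2 in G, 79.8 in GPH and 23.7 in control, and C1s1 at 27.1, 39.1, 157 and 36.6 CPM in that order. The plot of levels by library shows these values split by the stromal genes Dcn and Dpt.

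**Figure D1:**
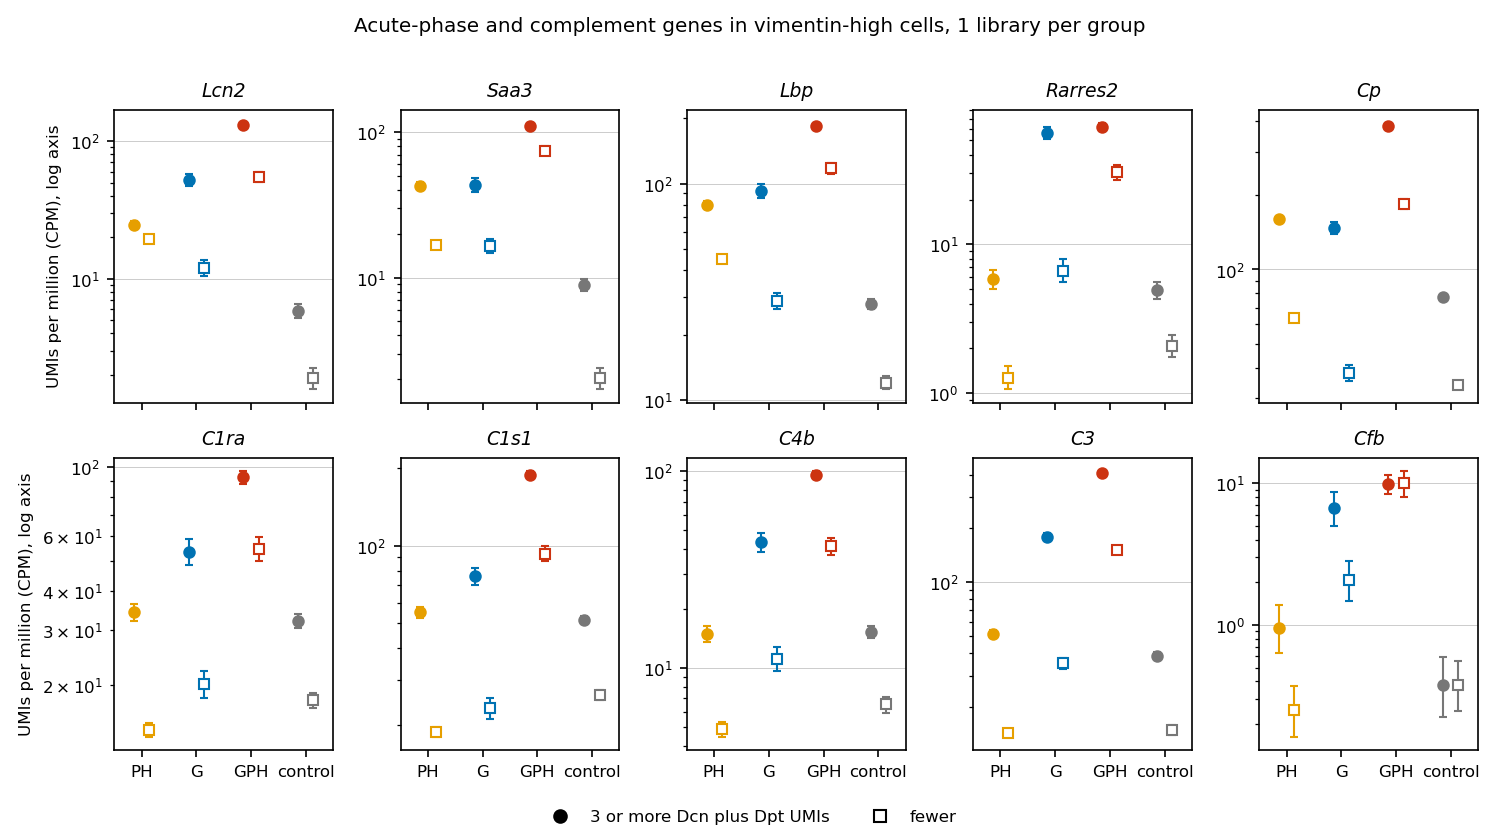
Level of each of the 10 genes (CPM, log axis) in vimentin-high cells of PH, G, GPH and control, with Poisson 95% intervals. Filled points are cells with at least 3 UMIs of Dcn and Dpt together and open points are cells with fewer. GPH is the highest library in every panel for both kinds of cell, and filled points lie above open ones except for Cfb in GPH and control.

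Against control, the 3 treated libraries differed in how many of the genes stood at least 1.5-fold apart. Every one of the 10 genes had at least 44 UMIs in control, so a filter at 20 UMIs removed none. In PH 4 of 10 were at least 1.5-fold higher and 0 lower, where 16.0% of 15345 genes with at least 20 UMIs were higher and 12.4% lower. In G 7 of 10 were higher and 0 lower, where 16.5% of genes were higher and 10.2% lower. In GPH 10 of 10 were higher, where 25.3% of genes were. The 4 of PH were Lcn2 (5.87-fold, 95% interval 5.29 to 6.53), Saa3 (4.67-fold, 4.27 to 5.12), Lbp (2.86-fold) and Cp (1.65-fold, 1.60 to 1.70). All of these belong to the acute-phase members, while the complement genes of PH stood at 0.711-fold (C4b) to 1.08-fold (Cfb). The 7 of G were Cfb (9.08-fold, 6.28 to 13.3), Lcn2 (6.92-fold, 6.11 to 7.85), Rarres2 (6.60-fold), Saa3 (5.06-fold), C3 (3.18-fold), Lbp (2.59-fold) and C4b (2.07-fold). Cp (1.37-fold), C1ra (1.27-fold) and C1s1 (1.07-fold, 1.00 to 1.14) stayed under 1.5-fold in G, though with cells thinned to 2000 UMIs the log2 ratio of C1s1 was 0.69.

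In GPH the ratios to control ran from 3.36-fold for C1ra (3.18 to 3.56) to 30.0-fold for Lcn2 (27.1 to 33.4). Cfb was 26.0-fold higher (18.9 to 36.7), Saa3 20.3-fold (18.5 to 22.2) and Rarres2 15.8-fold (14.1 to 17.7). C3 was 13.1-fold higher (12.6 to 13.7), Lbp 8.74-fold, C4b 7.69-fold, Cp 6.11-fold and C1s1 4.28-fold. GPH was also above each of the other treated libraries. Against PH, 10 of 10 genes were at least 1.5-fold higher (23.6% of genes), from 3.06-fold for Lbp to 24.0-fold for Cfb. Against G, 10 of 10 were higher (22.9% of genes), from 2.39-fold for Rarres2 to 4.46-fold for Cp. These comparisons share libraries and are not independent. A stricter filter of 20 CPM over both libraries left out Rarres2 and Cfb for GPH, and passed Lcn2, Saa3 and C4b only through the high level of GPH, so no count over the passing members is read here.

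**Figure D2:**
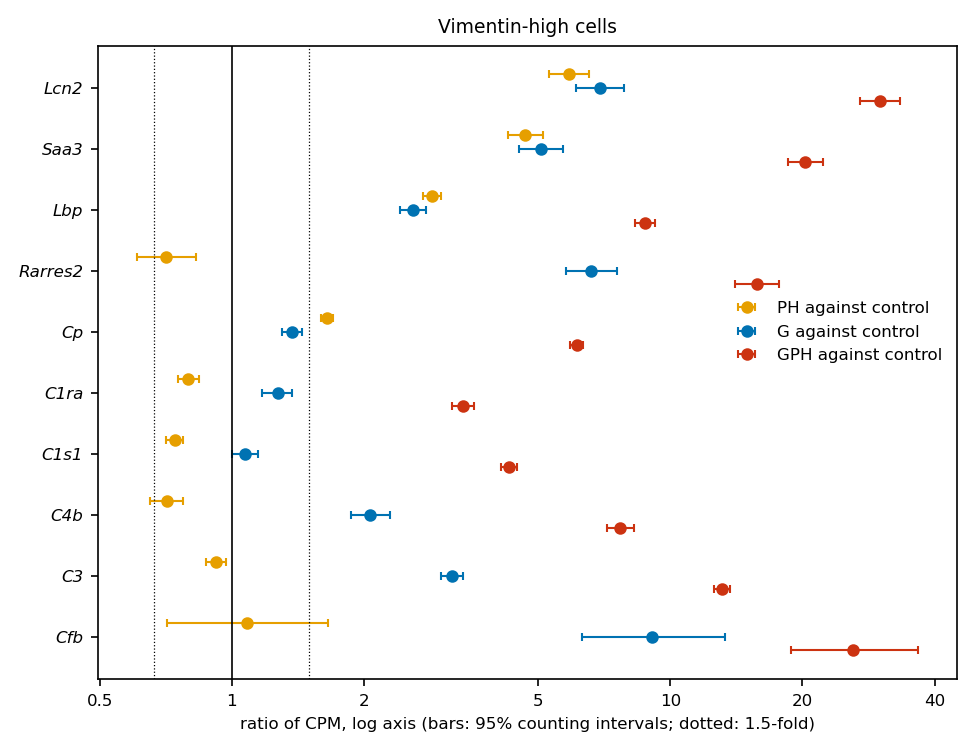
Ratio of CPM to control (log axis) for the 10 genes in vimentin-high cells of PH, G and GPH, with exact 95% counting intervals and dotted lines at 1.5-fold. All 10 GPH points lie beyond 1.5-fold higher, from 3.36 for C1ra to 30.0 for Lcn2, and PH lies at or below 1 for Rarres2 and the complement genes other than Cfb.

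The share of cells with at least 1 UMI was also highest in GPH for all 10 genes. The order of the other libraries differed from that of CPM for Lbp and Cfb. C3 was detected in 13.3% of vimentin-high cells in PH, 27.2% in G, 71.6% in GPH and 16.7% in control. T cells, which should lack it, were positive in 0.773% of 388 cells in PH, 1.42% of 2880 in G, 0 of 63 in GPH (which allows up to 4.76%) and 0.253% of 396 in control. Median depths of vimentin-high cells were 9441, 11076, 15335 and 11330 UMIs in PH, G, GPH and control, and those of T cells 2103, 3562.5, 3145 and 2289.5. With every cell thinned to 2000 UMIs, C3 was found in 4.92% of vimentin-high cells in PH, 13.6% in G, 38.1% in GPH and 5.42% in control. Lcn2 was then found in 2.99% of cells in PH, 4.27% in G, 13.0% in GPH and 0.548% in control. Cp was found in 16.5%, 13.9%, 44.4% and 10.2% of cells in that order. Thinned cells with 3 or more of the 10 genes made up 3.22% of PH, 8.17% of G, 32.0% of GPH and 1.85% of control. Per cell, 38 of 40 combinations of gene and library had at least 2-fold more UMIs in vimentin-high cells than in T cells of that library, with a floor of 3 UMIs. The other 2 were Cfb in PH and in control, whose levels cannot be told from free RNA.

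The genes differed in how their UMIs were spread over cells. In vimentin-high cells the 1% of cells with the most Saa3 held 87.0% of its UMIs in PH, 68.9% in G, 65.2% in GPH and 96.5% in control. For Lcn2 these shares were 60.3%, 45.6%, 23.2% and 72.9%, and for C1ra 16.6%, 11.3%, 7.42% and 10.9%. Saa3 was thus carried by few cells in each library, while C1ra was spread widely. Cells with at least 10 Saa3 UMIs numbered 67 in PH, 21 in G, 48 in GPH and 14 in control, and they held 77.3%, 72.1%, 93.5% and 70.4% of its UMIs. Dcn was detected in 44.8% of them against 15.6% of the rest in PH, in 38.1% against 24.7% in G, in 37.5% against 26.5% in GPH and in 85.7% against 37.6% in control. The macrophage gene Lyz2 was detected in 2.99% against 2.08% in PH, 23.8% against 20.1% in G, 4.17% against 1.23% in GPH and 7.14% against 2.44% in control. Xist, which the vimentin-high cells mostly lacked, was detected in 4.48% against 1.05% in PH, 19.0% against 5.10% in G, 0% against 0.578% in GPH and 0% against 1.00% in control. The leukocyte gene Ptprc was detected in 1.49% against 0.561% in PH, 14.3% against 4.29% in G, 0% against 0.145% in GPH and 0% against 1.07% in control. The part of other cells among the cells with much Saa3 was not tested.

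**Figure D3:**
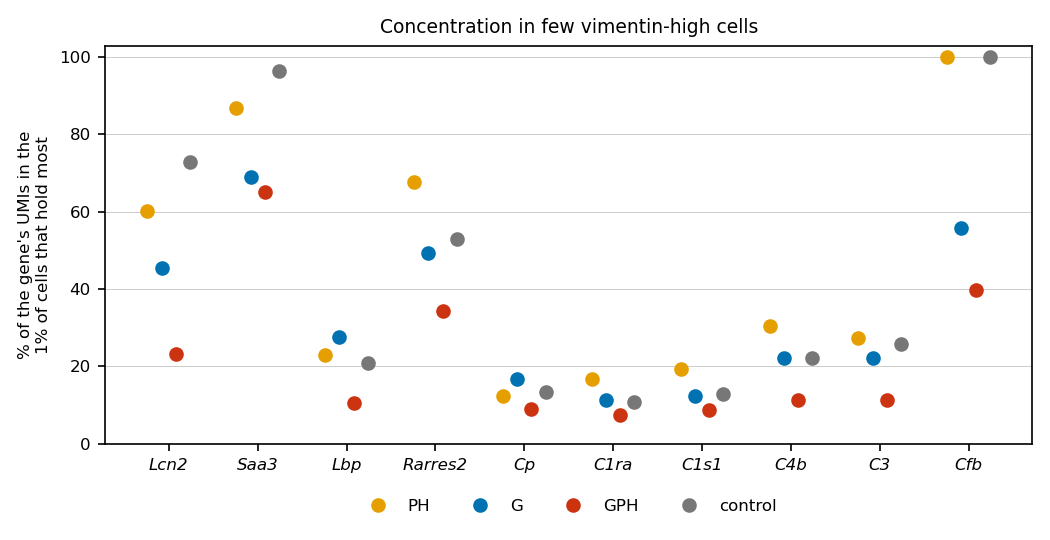
Percent of each gene's UMIs held by the 1% of vimentin-high cells with the most of it, per library. Saa3 lies at 65.2% or more in every library and C1ra at 16.6% or less; a gene with few UMIs, such as Cfb, lies high by its counts alone.

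Vimentin-high cells with at least 3 UMIs of Dcn and Dpt, genes of the fibroblast matrix proteins decorin and dermatopontin, held more of most members than the other vimentin-high cells. Such cells made up 18.5% of vimentin-high cells in PH, 28.4% in G, 62.8% in GPH and 34.6% in control. Cells with 2 UMIs, just under the threshold, numbered 800, 152, 132 and 611, and cells with 3 numbered 478, 91, 113 and 413. Counting genes at least 1.5-fold higher in the Dcn or Dpt cells gave 9 of 10 in PH (10.6% of genes), 10 of 10 in G (15.0%), 8 of 10 in GPH (11.4%) and 9 of 10 in control (7.42%). C3 stood at 51.2 CPM in Dcn or Dpt cells against 14.3 in the others in PH, at 178 against 35.1 in G, at 410 against 151 in GPH and at 38.7 against 14.8 in control. Its ratio ran from 2.61 in control to 5.09 in G. Lcn2 stood at 24.5 against 19.3 CPM in PH, 52.3 against 12.0 in G, 130 against 55.1 in GPH and 5.80 against 1.88 in control. The 1.27-fold of Lcn2 in PH was the only ratio under 1.5 there, and Saa3 (1.48-fold) and Cfb (0.986-fold) were those of GPH. In control, Cfb stood at 0.995-fold. Dcn itself did not follow the members between libraries, at 84.6 CPM in PH, 133 in G, 168 in GPH and 205 in control, while Dpt was at 72.7, 101, 345 and 92.3 CPM.

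The difference of GPH from control was present in both strata. In Dcn or Dpt cells 10 of 10 genes were at least 1.5-fold higher in GPH (25.4% of genes), and in the other cells 10 of 10 were (19.7%). Cfb had under 20 UMIs in control Dcn or Dpt cells, so it entered the counts of these cells only through the treated library. Saa3 in the cells with little Dcn and Dpt was 74.6 CPM in GPH and 2.03 in control, or 36.8-fold higher. For G, 9 of 10 were higher in Dcn or Dpt cells (17.5% of genes) and 7 of 10 in the others (12.6%). Rarres2 in Dcn or Dpt cells was 55.8 CPM in G and 61.7 in GPH, against 5.82 in PH and 4.92 in control. For PH, 5 of 10 were higher in Dcn or Dpt cells (15.4% of genes), and in the others 4 were higher (15.1%) and 2 lower (12.0%), Rarres2 at 0.611-fold and Cfb at 0.661-fold. Over all vimentin-high cells Cfb gave only 53 UMIs in PH and 44 in control, which could not be told from free RNA. Its ratios of PH to control are therefore not read as a difference. The counts for PH include Cfb, among the 5 higher in Dcn or Dpt cells and the 2 lower in the others.

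The libraries also placed their vimentin-high cells in different clusters. Cluster 6, with Ptn, Hmox1, Acta2, Has2, Dpt and Dcn among its leading genes and 5 fibroblast markers, held 1014 of 1431 vimentin-high cells in GPH, 514 of 1884 in G, 273 of 10585 in PH and 1353 of 7785 in control. Within cluster 6, Lcn2 stood at 89.4 CPM in PH, 90.3 in G, 148 in GPH and 10.0 in control, and Saa3 at 148, 72.5, 130 and 13.0 CPM. The treated libraries were thus closer to each other inside this cluster than over all vimentin-high cells, and control stayed low. C3 there was at 99.1 CPM in PH, 251 in G, 438 in GPH and 58.9 in control. Its GPH ratio to control was 7.44-fold in cluster 6, and that of Lcn2 was 14.8-fold, of Saa3 10.0-fold, of Cp 4.01-fold and of C1ra 2.24-fold. In each of the 6 clusters with at least 50 cells in both libraries, GPH had most members at least 1.5-fold higher, with 8 of 8, 8 of 9, 10 of 10, 8 of 8, 10 of 10 and 9 of 9 of those with 20 UMIs in clusters 0, 1, 3, 5, 6 and 9. Of all genes with 20 UMIs, 22.0%, 8.73%, 25.9%, 15.9%, 22.0% and 12.2% were higher in these clusters. Some members reached 20 UMIs through GPH alone, such as Saa3 in cluster 0 with 90 UMIs in GPH and 8 in control. With these clusters given equal weight, a setting added after the data had been seen, the log2 ratios of GPH were lower, at 2.72 for Lcn2, 2.51 for Saa3, 2.33 for C3, 2.29 for Lbp, 1.84 for C4b, 1.65 for Cp, 1.43 for C1s1 and 1.04 for C1ra.

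In PH some clusters had members at least 1.5-fold lower than control, which no compared cluster of GPH had. Cluster 9 held 3073 cells of PH and 252 of control. In PH it carried 1856 of the 2647 Lcn2 UMIs and 2103 of the 2930 Saa3 UMIs of vimentin-high cells. Inside this cluster Saa3 of PH hardly differed from control (1.03-fold), and Lcn2 was 2.43-fold higher. The higher Saa3 of PH over all vimentin-high cells was thus not seen in the cluster with most of its UMIs. Saa3 ratios of the other compared clusters ran from 1.55-fold in cluster 3 to 11.4-fold in cluster 6, some from few UMIs. In cluster 6 of PH 9 of 10 members were at least 1.5-fold above control (11.7% of genes), while in cluster 5 2 of 9 were higher (11.7%) and 5 lower (12.3%). The 9 included Cfb, with 11 UMIs in PH and 10 in control, whose ratio of PH to control is not read. Saa3, higher in cluster 5, had 21 UMIs in PH and 10 in control there. At equal weight of clusters the log2 ratio of PH was 0.26 for C1ra and 0.29 for C1s1, the opposite direction to their ratios of 0.797 and 0.741 over all vimentin-high cells. In G, 9 of 10 members were higher in cluster 6 (16.1% of genes) and 2 of 9 in cluster 9 (9.44%). Cfb was among these 9, with 65 UMIs in G and 10 in control, and so passed 20 UMIs through G alone.

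**Figure D4:**
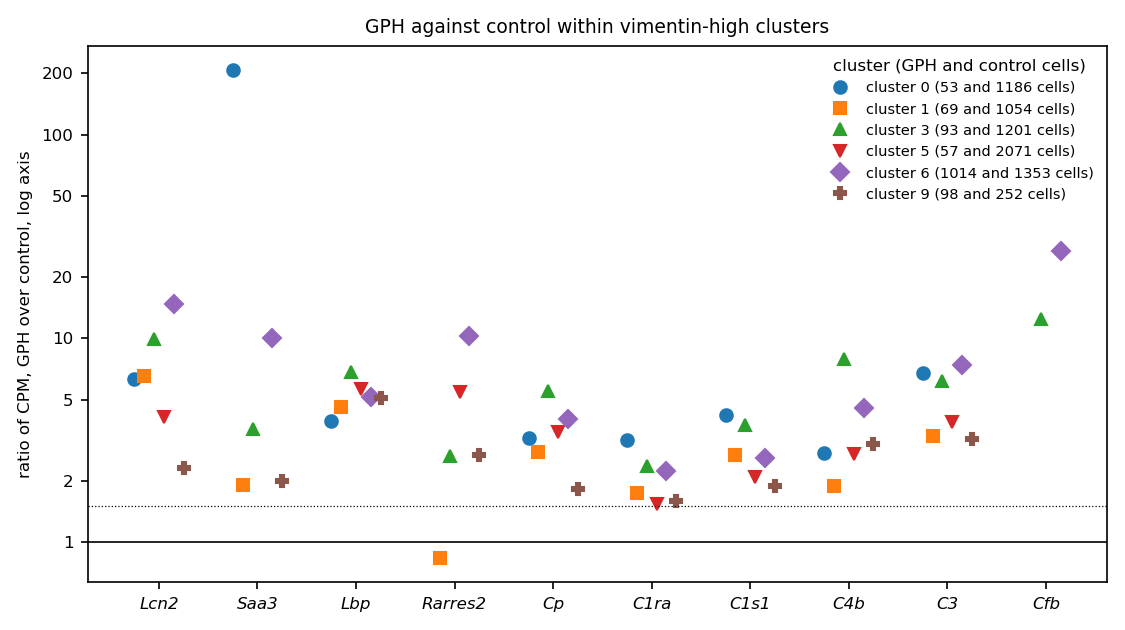
Ratio of GPH to control (log axis) within each of 6 clusters of vimentin-high cells, for members with at least 20 UMIs in both libraries together, with a dotted line at 1.5-fold. No member lies 1.5-fold lower in any cluster. Ratios in cluster 6, which holds 1014 of the 1431 GPH cells, run from 2.24 for C1ra to 26.9 for Cfb. Cfb had 232 UMIs in GPH and 10 in control there, and so passed through GPH alone.

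Keratin-high tumour cells showed another set of members. They could be compared only for GPH against G. Cluster 20, with a median of 997 UMIs, gave 237 of these cells in GPH and 14 in G. No limit on depth was set for keratin-high clusters. Cfb was at 133 CPM in GPH and 62.0 in G (2.15-fold, 2.06 to 2.25), and C4b was at 90.8 CPM in GPH and 39.8 in G (2.28-fold, 2.17 to 2.41). The acute-phase gene Lcn2 went the other way, at 32.9 CPM in GPH and 62.9 in G (0.524-fold). Few cells carried Lcn2: 68 of 2076 in GPH and 66 of 1318 in G had at least 10 UMIs. These held 84.4% and 80.6% of its UMIs. C3 was at 76.0 CPM in GPH and 135 in G (0.563-fold), and Cp at 86.3 CPM in GPH and 132 in G (0.654-fold). Lbp (52.3 and 51.5 CPM), C1ra (15.2 and 15.9 CPM) and C1s1 (12.8 and 11.1 CPM) were close in GPH and G. In all, 2 genes were at least 1.5-fold higher and 5 lower (with Saa3 and Rarres2, which were nearly absent), where 22.4% of genes were higher and 10.4% lower. Cfb was detected in 85.0% of keratin-high cells in GPH and 71.8% in G, at median depths of 42670 and 29492.5 UMIs, against 3.17% of 63 T cells in GPH and 0.243% of 2880 in G. Thinned keratin-high cells were positive for Cfb in 22.3% of GPH and 13.4% of G, and for C3 in 11.1% of GPH and 19.3% of G. Hepatocyte markers summed to 227 CPM in GPH and 460 in G in these cells, and their part in the result was not tested.

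Set against vimentin-high cells of the same library, keratin-high cells had more Cfb, at 18.1-fold in G and 13.6-fold in GPH. C4b was 1.91-fold higher in G and 1.17-fold in GPH. Saa3 and Rarres2 were the least keratin-associated members, at 0.0712-fold and 0.0348-fold in G and at 0.00576-fold and 0.00413-fold in GPH. Keratin-high cells held only 51 Saa3 UMIs in GPH and 75 in G, and the level in G was 2.16-fold that of T cells per cell, near that of free RNA. In G 5 of 10 genes were at least 1.5-fold higher in keratin-high cells and 4 lower (23.2% and 34.2% of genes), and in GPH 1 was higher and 8 lower (26.1% and 32.9%). Lcn2, C3 and Cp changed side between the libraries: they were 2.60-fold, 1.72-fold and 1.86-fold higher in keratin-high cells of G, and at 0.314-fold, 0.235-fold and 0.273-fold in those of GPH. The Lcn2 UMIs of keratin-high cells came mostly from the few cells named above.

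**Figure D5:**
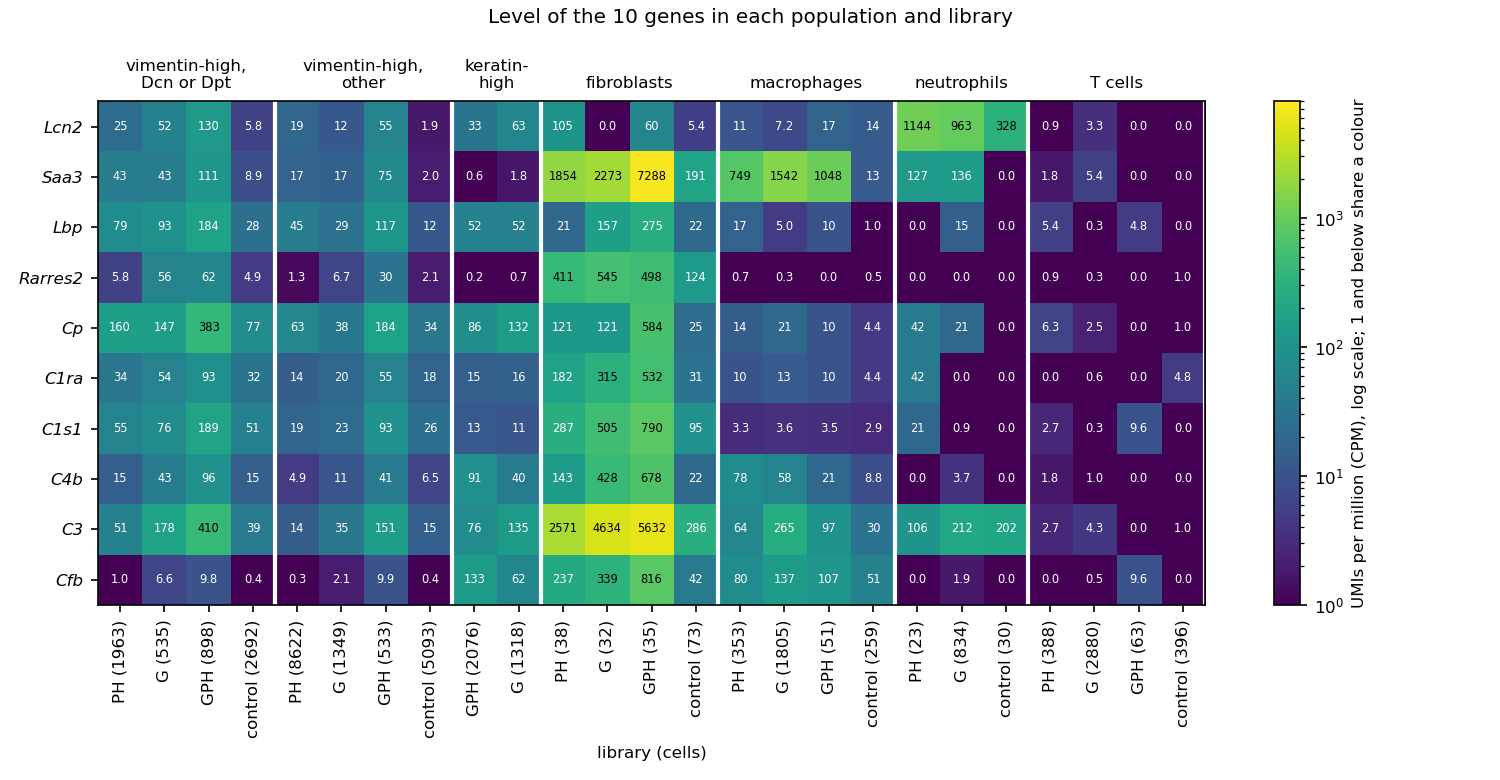
Heat map of the level of each of the 10 genes (CPM, printed in each box, colour on a log scale) in every population and library with at least 20 cells. Bright boxes mark Saa3 and C3 in fibroblasts of PH, G and GPH, Saa3 in macrophages of PH, G and GPH, and Lcn2 in neutrophils of PH and G, while no T cell box exceeds 9.59 CPM.

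Fibroblasts were few, with 38 cells in PH, 32 in G, 35 in GPH and 73 in control. The control cells of this cluster went against its label, with Col1a1 at 1068 CPM, fibroblast markers summing to 2968 CPM and 28 of 73 cells without Xist. Those markers summed to 14135 CPM in PH, 16733 in G and 15864 in GPH. No ratio between libraries is therefore given. C3 was at 2571 CPM in PH fibroblasts, 4634 in G, 5632 in GPH and 286 in control. Saa3 was at 1854 CPM in PH, 2273 in G, 7288 in GPH and 191 in control. In GPH 1 cell held 719 of its 849 UMIs (84.7%), and in G 1 cell held 52.2%. Median depths of fibroblasts were 14159.5 UMIs in PH, 7322.5 in G, 2067 in GPH and 30930 in control. Over the 45 control cells with Xist, C3 was at 357 CPM and Saa3 at 355. Rarres2 was at 411 CPM in PH, 545 in G, 498 in GPH and 124 in control. C4b reached 143, 428, 678 and 22.0 CPM and Cfb 237, 339, 816 and 42.0 CPM in that order. Of the 95 Cfb UMIs in GPH, 1 cell held 53. Lcn2 was uneven in fibroblasts, with 105 CPM in PH, 0 UMIs in G, 60.1 CPM in GPH and 5.36 in control.

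Macrophages of PH and G held more Saa3, C3 and Cfb than those of control. They numbered 353 in PH, 1805 in G and 259 in control, and 51 in GPH, too few for a comparison. Of the members with at least 20 UMIs, 7 of 8 were at least 1.5-fold higher in PH than in control and 0 lower, where 18.0% of genes were higher and 13.4% lower. In G 7 of 9 were higher and 1 lower, where 20.1% were higher and 21.5% lower. Lbp, Cp, C1ra, C4b and, for G, C1s1 had under 20 UMIs in control and could enter these counts only through the treated library. The counts are therefore not read as a difference. Saa3 gave 2287 UMIs in PH, 13999 in G, 303 in GPH and 27 in control, or 749, 1542, 1048 and 13.2 CPM. It was 117-fold higher in G than in control (80.5 to 178). Few cells carried it: 33 of 353 macrophages in PH and 94 of 1805 in G had at least 10 UMIs, and these held 96.7% and 98.0% of the UMIs. Lyz2 was detected in 100% of these cells in both libraries, and Dcn in 6.06% in PH and 0% in G. Saa3 was detected in 17.6% of macrophages in PH, 12.0% in G, 9.80% in GPH and 3.09% in control, at median depths of 7210, 4096, 2742 and 6165 UMIs. T cells were positive for Saa3 in 0.515% of cells in PH, 2.43% in G, 0 of 63 in GPH and 0 of 396 in control (which allow up to 4.76% and 0.758%). C3 was at 64.2 CPM in PH and 265 in G, against 30.2 in control (2.12-fold and 8.78-fold). C4b was at 78.3 CPM in PH and 57.7 in G, against 8.77 in control, and Cfb at 80.3 and 137 CPM against 51.2. Lcn2 gave 10.8 CPM in PH and 7.16 in G, against 13.6 in control, and was the 1 lower member of G (0.525-fold).

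Neutrophils, whose granules store lipocalin 2, were numerous in G alone, with 834 cells against 23 in PH, 17 in GPH and 30 in control. Lcn2 was at 1144 CPM in PH, 963 in G, 127 in GPH and 328 in control, from 54, 1030, 5 and 13 UMIs. In G it was detected in 183 of 834 cells, at a median depth of 982.5 UMIs. There 11 cells with at least 10 UMIs held 69.4% of its UMIs. With so few cells outside G, no difference between libraries is given. C3 was at 106, 212, 203 and 202 CPM in PH, G, GPH and control. Neutrophil markers summed to 0.937 CPM in vimentin-high cells of PH, 24.1 in G, 1.05 in GPH and 1.12 in control, and macrophage markers to 24.1, 52.9, 15.0 and 17.1 CPM. Of 10 macrophage markers, 7 were detected in vimentin-high cells of GPH (Adgre1, Ms4a7 and Ccr2 were at 0) and all 10 in those of PH, G and control. The part of these cells in the results was not tested.

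Other genes of the pathway were uneven in vimentin-high cells. Clu, which encodes the complement inhibitor clusterin, was at 260 CPM in GPH and 34.8 in control (7.46-fold). It was 2.10-fold higher in G and at 0.399-fold in PH. Of 13 measured transcription factors and feedback genes, 4 were higher and 2 lower in PH, 1 higher and 1 lower in G, and 7 higher and 0 lower in GPH. Of all genes, 6.67% were higher and 7.55% lower in PH, 3.64% and 6.22% in G, and 17.0% and 10.3% in GPH. Nfkb1, a subunit of NF-kappaB, was 2.19-fold higher in PH, 2.16-fold in G and 3.09-fold in GPH. Stat3 was 2.66-fold higher in GPH, and Tnfaip3, a feedback inhibitor of NF-kappaB, was 5.64-fold higher in PH. Socs3, a feedback inhibitor of STAT3, was at 0.496-fold in PH and 0.343-fold in G. Of 5 measured cytokines and receptors, 0 were higher in PH, 1 in G (Il6ra, 1.54-fold) and 4 in GPH, with Il6ra at 2.29-fold and Il6st at 2.07-fold. Of 27 other acute-phase genes in the files only Mt2 passed the filter and it was at 0.879-fold in PH, 0.888-fold in G and 1.02-fold in GPH. Colec12 was the only further complement component measured, at 1.92-fold in GPH, and no complement or chemerin receptor and none of the partners in iron, copper and lipopolysaccharide handling passed the filter against control.

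In keratin-high cells of GPH against G, Reg3b, an acute-phase lectin of the pancreas and gut, was at 889 CPM in GPH and 247 in G (3.59-fold). It was the only one of 3 measured acute-phase genes that was at least 1.5-fold apart, where 17.9% of genes were higher and 3.01% lower. Of 13 transcription factors and feedback genes 6 were higher and 1 lower, with Cebpb at 0.587-fold. Clu was the 1 of 3 complement inhibitors that was higher (2.13-fold), and 2 of 5 cytokines and receptors and 1 of 3 iron, copper and lipopolysaccharide partners were higher. In macrophages, 7 of 13 transcription factors and feedback genes were higher and 0 lower in PH (13.6% and 10.5% of genes), and 7 of 14 higher and 2 lower in G (18.1% and 15.4%). Nfkbiz and Nfkb1 were 5.94-fold and 4.26-fold higher in PH, and Nfkb1 and Relb 3.0-fold and 2.12-fold in G. Of the inducing cytokines and receptors, 6 of 12 were higher and 1 lower in PH, and 6 of 11 higher and 2 lower in G. Of 6 complement and chemerin receptors, 3 were higher and 0 lower in PH, led by Ccrl2 (3.34-fold) and Itgam (2.21-fold), and 2 were higher and 2 lower in G. Of other acute-phase genes, 1 of 4 was higher in PH (S100a8, 2.81-fold), and 3 of 5 higher and 1 lower in G (Mt2, 0.221-fold). None of 3 iron, copper and lipopolysaccharide partners in PH and of 4 in G was 1.5-fold apart. Of 4 measured further complement components, among them the C1q genes, 0 were 1.5-fold apart in macrophages of PH or G.

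Across 20 combinations of population and library, 2983 genes were compared by Pearson's r of log2(CPM + 1) with the 3 members that had the most UMIs in vimentin-high cells. Lbp and Cp were close to each other, at r = 0.916. The genes nearest Cp were Lbp, Klf5 (0.910) and Ndrg1 (0.910), and those nearest Lbp were Hbegf (0.917), Cp and Fosl1 (0.912). The nearest to C3 were Ier3 (0.847), Trib1 (0.845) and Nfe2l2 (0.843). The points share libraries and depth, so r is a description only.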

How the data were processed

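The authors deposited raw UMI counts, with no normalization, for each barcode. Cell Ranger 6.1 and mm10 are named per the submitters' processing notes, and Cell Ranger 7.0.1 per the file headers. Gene positions are from GENCODE on mm10. Cells with at least 500 UMIs, 300 genes and at most 20% mitochondrial UMIs were kept. Scrublet's own threshold called 0 to 2 doublets per library and had not worked, so the highest scores were removed at 0.8% per 1000 cells (2056, 1573, 168 and 977 in PH, G, GPH and control). All libraries went into a single clustering, with no correction for batch (scanpy 1.11.5, 2000 variable genes, 30 components, 15 neighbours, Leiden resolution 1.0). Clusters with Ptprc under 50 CPM and Xist under 50 CPM were keratin-high at Krt19 of 1000 CPM, and vimentin-high at Vim of 2000 CPM unless their median depth fell short of 1/3 of the median of the libraries they came from. Immune and fibroblast clusters needed 3 markers at 50 CPM and a 2-fold excess.

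UMIs were summed per population and library and scaled to CPM. Ratios carry exact conditional binomial intervals, shares exact Clopper-Pearson intervals and levels Poisson intervals, all at 95% and for counting error only. A fold of 1.5 counted as higher or lower, and a gene was measured at 20 CPM and 20 UMIs over both arms. A count of 0 allows 3 counts. The intervals were tested on simulated independent Poisson counts. That setting lacks the concentration of UMIs in few cells seen here, so it does not show how the intervals hold for such genes. The members and gene lists (other acute-phase and complement genes, complement inhibitors, receptors, inducing cytokines, transcription factors, binding partners) were chosen with earlier results of these data known. From each list, genes with the largest ratios among those measured are named. Python 3.11.15, numpy 2.4.6, scipy 1.17.1 and pandas 2.3.3 were used. Some genes of these lists are not reported here.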

Additional observations from a re-analysis of the deposited data

How the results depend on the processing

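No paired analysis was possible because each group has 1 library. Values here are the median log2 ratio over the members that passed the filter on low levels, some of them only through the higher arm, so they describe the settings and support no difference. For GPH against control it was 3.04 and lay between 2.06 and 3.42 over 14 alternatives, with 2.06 at equal weight of clusters, a setting added after the data had been seen. For PH against control it was -0.12, between -0.15 and 0.90. For G against control it was 0.45, between -0.00 and 1.52, and was on the other side of 0 only among the vimentin-high cells with little Dcn and Dpt (-0.0038, 2 members left). For keratin-high cells of GPH against G it was -0.29, between -0.61 and -0.15. For keratin-high against vimentin-high cells it was -0.57, between -0.80 and -0.51. For Dcn or Dpt cells against the others it was 1.28 (3 members), between 1.08 and 1.63, the highest with the threshold of 3 UMIs applied to thinned cells, and moved to 1.18 with doublets kept, 1.25 with median-of-ratios scaling, 1.18 as a mean of per-cell CPM, 1.08 with thinned cells and 1.14 with a threshold of 10 UMIs. The causes were not tested. Of 377 values of single members under an alternative, 13 moved by over 1.5-fold, 10 of them at equal weight of clusters, and 0 of the called ones reversed. Between 31 and 38 of 40 levels stood 2-fold above T cells. A minimum of 100 CPM in 1 arm left no member for PH, G and the Dcn or Dpt comparison. Depth limits Cfb most, with 44 UMIs in control vimentin-high cells, and few fibroblasts, neutrophils and GPH macrophages limit those populations.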

Other observations

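Beyond the genes above, 3 genes of the same lists under the filter of 20 CPM were picked after their values had been seen. In vimentin-high cells Serpina3n, an acute-phase protease inhibitor, stood at 0.689 CPM in PH, 1.37 in G, 17.4 in GPH and 0.473 in control. Orm1, the acute-phase carrier protein orosomucoid, stood at 4.78 CPM in PH, 2.99 in G, 23.9 in GPH and 0.997 in control. Il6, the cytokine that induces the acute-phase response, stood at 1.35 CPM in PH, 4.84 in G, 23.4 in GPH and 1.70 in control. Each was highest in GPH, but they were picked with these values known, so this supports no difference. Some other listed genes under the filter were lower in GPH than in control, from few UMIs. Among them were C3ar1 (0.218 CPM in GPH and 0.421 in control) and Cd59a (0 and 0.146 CPM).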
